A study of Mus musculus with 10 samples.

Results

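The tetraspanin genes Cd63, Cd9, Cd81, Cd82, Cd37, Cd53 and Cd151 were followed in cultured mouse mast cells. They were taken from the deposited count table by matching its Ensembl identifiers to these 7 names, which gave 7 rows of 49671 gene rows. All 7 were among the 11247 genes with enough counts to be tested. The cells were bone marrow-derived mast cells (BMMCs) of wild-type C57BL/6 mice, kept in interleukin 3 (IL-3) for 6 to 8 weeks per the labels, which also give 6 to 8 weeks as the age. All 6 groups had IL-3, whose dose the labels give as 5 ng/mL in one field and 10 ng/mL in another. One group had IL-3 alone (2 libraries), and one had the Kit ligand stem cell factor (SCF) at 100 ng/mL (2 libraries). Another 2 groups had SCF, at a dose not stated for them, with TGF-β at 1 ng/mL (2 libraries) or 10 ng/mL (2 libraries). The last 2 groups had TGF-β without SCF at 1 ng/mL or 10 ng/mL, with 1 library each. Stimulation with SCF, TGF-β or both lasted 72 h, and no time is given for IL-3 alone. In comparisons with IL-3 alone, a difference in culture time therefore cannot be told apart from the treatment. The question the design poses is how SCF, TGF-β and both together alter the transcripts of cultured mast cells. These are cultured cells grown from marrow, not mast cells taken from tissue. Whether a group's libraries were made from different cultures or animals is not stated, so each p reflects the scatter between the libraries at hand, which may be technical.

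Tetraspanins are small proteins that cross the membrane several times and gather integrins, immunoglobulin-family proteins and proteases into membrane microdomains. CD63 sits in lysosomes and secretory granules and is the classical surface marker of mast cell and basophil degranulation. CD9, CD81 and CD82 act mainly at the plasma membrane and on extracellular vesicles, CD37 and CD53 are found on blood cells, and CD151 is a partner of laminin-binding integrins.

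Each library held between 1237382 and 2323916 counts in genes (median 1708116). Levels are given as CPM (gene counts scaled to a common library size, with TMM factors), and 1 count was worth between 0.421 and 0.848 CPM. All 10 mast cell markers, among them Kit and Fcer1a, were detected in all 6 groups, with summed levels between 55100 and 95300 CPM. The B cell, T cell, neutrophil and fibroblast lists summed to at most 3.89 CPM in any library and the macrophage list to 10.5 to 18.4 CPM. The basophil list summed to 456 to 702 CPM, most of it Cd200r3 (431 to 680 CPM), with Mcpt8 at 0.518 to 25 CPM and Prss34 at 1.09 to 17.9 CPM. The platelet and megakaryocyte list summed to 1734 to 2149 CPM, most of it Itga2b (1320 to 1840 CPM), with Pf4 and Ppbp at 0. As a check of the treatment labels, Skil, an early target of TGF-β signalling, was 10.7-fold and 15.6-fold higher with 1 and 10 ng/mL TGF-β in SCF than in SCF alone, and 8.44-fold higher with TGF-β alone than in IL-3 (adjusted p = 4.28e-07, 2.66e-08 and 2.66e-07). A bulk library cannot tell fewer expressing cells from less RNA per cell.

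The genes lie on 5 chromosomes in the GRCm38 annotation. Cd63 (ENSMUSG00000025351) is at chr10:128900989-128912822 on the plus strand, Cd9 (ENSMUSG00000030342) at chr6:125460266-125494791 on the minus strand, and Cd82 (ENSMUSG00000027215) at chr2:93419111-93463140 on the minus strand. Cd53 (ENSMUSG00000040747) is at chr3:106759921-106790149 on the minus strand. Chromosome 7 carries Cd37 (ENSMUSG00000030798) at chr7:45233632-45239115 on the minus strand, Cd151 (ENSMUSG00000025510) at chr7:141467392-141471473 on the plus strand and Cd81 (ENSMUSG00000037706) at chr7:143052739-143067934 on the plus strand. Exons of Cd9 (218 of 2044 bases), Cd81 (104 of 2879), Cd37 (13 of 3522) and Cd151 (193 of 2741) overlap exons of a gene on the opposite strand, and reads from the 2 strands cannot be told apart here. Processed pseudogenes of Cd63 and Cd9 exist, so a share of their reads could have been placed there.

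The sequences before RefSeq transcript starts of Cd63 and Cd81 are shown because these were the members called in the largest number of comparisons below, with that of Tspan32, a further tetraspanin gene that lies 33.1 kb from Cd81 and was called lower with it in 2 comparisons. The Cd63 window lies inside the annotated Cd63 gene, before a RefSeq start that is downstream of that gene's annotated start. They are RefSeq sequences of GRCm38.p6 on the plus strand, 5′ to 3′, ending just before or, for Cd81, 12 bases before the RefSeq transcript start. Capitals mark matches, on either strand, to the motifs CAGAC (the SMAD box), TGACTCA (the AP-1 site), CACGTG (the canonical E-box), CATGTG (a variant of the E-box), TTCNNNGAA (the STAT site), CCGGAA (the ETS site), AGATAA (the GATA site) as well as GGGCGG (the GC box).
Cd63, chr10:128909095-128909344: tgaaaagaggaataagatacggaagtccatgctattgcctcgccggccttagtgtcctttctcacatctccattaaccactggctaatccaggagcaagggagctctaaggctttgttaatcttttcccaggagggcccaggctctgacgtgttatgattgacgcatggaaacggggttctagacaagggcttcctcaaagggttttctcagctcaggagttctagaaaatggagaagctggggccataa
Cd81, chr7:143052500-143052738: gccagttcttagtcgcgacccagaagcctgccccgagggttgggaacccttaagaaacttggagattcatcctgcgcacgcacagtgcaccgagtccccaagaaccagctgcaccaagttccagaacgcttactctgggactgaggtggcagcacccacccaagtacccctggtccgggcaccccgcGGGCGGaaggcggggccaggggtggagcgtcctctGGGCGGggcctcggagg
Tspan32, chr7:143004796-143005045: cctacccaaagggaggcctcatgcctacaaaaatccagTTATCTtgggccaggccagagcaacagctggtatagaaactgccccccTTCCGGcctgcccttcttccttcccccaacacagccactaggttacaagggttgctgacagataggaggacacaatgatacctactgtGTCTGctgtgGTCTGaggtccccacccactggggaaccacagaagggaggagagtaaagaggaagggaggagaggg
None of the 8 motifs was in the Cd63 window. The Cd81 window held GGGCGG at 2 places, 63 and 28 bases before the start, a motif found in 31.2% of 32851 RefSeq windows of that length. The Tspan32 window held CAGAC at 2 places, CCGGAA at 1 and AGATAA at 1, on the strand opposite to the one printed, and these motifs were in 42.2%, 12% and 9.99% of windows of its length. A match describes letters only, and no match says only that these letters are not in this window.

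Per kb of exon, Cd63 was the most abundant member in every group, followed by Cd53. In IL-3 alone Cd63 stood at 462 ± 19.4 CPM per kb (SD, n = 2), Cd53 at 322 ± 91.1, Cd9 at 154 ± 49.9, Cd37 at 96.0 ± 6.39, Cd81 at 49.0 ± 15.5, Cd82 at 19.7 ± 6.44 and Cd151 at 8.80 ± 0.128. The libraries of neighbours in that order did not overlap in IL-3 alone, while those of Cd82 and Cd151 overlapped in SCF. In the 3 groups with SCF the order was the same down to Cd81, below which Cd151 was above Cd82. With 10 ng/mL TGF-β alone Cd81 came after Cd63 and Cd53, at 154 CPM per kb, above Cd37 at 84.9 and Cd9 at 80.6. Exon length here is that of all annotated exons of a gene merged, so a gene with long minor exons ranks too low on this scale.

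**Figure D1:**
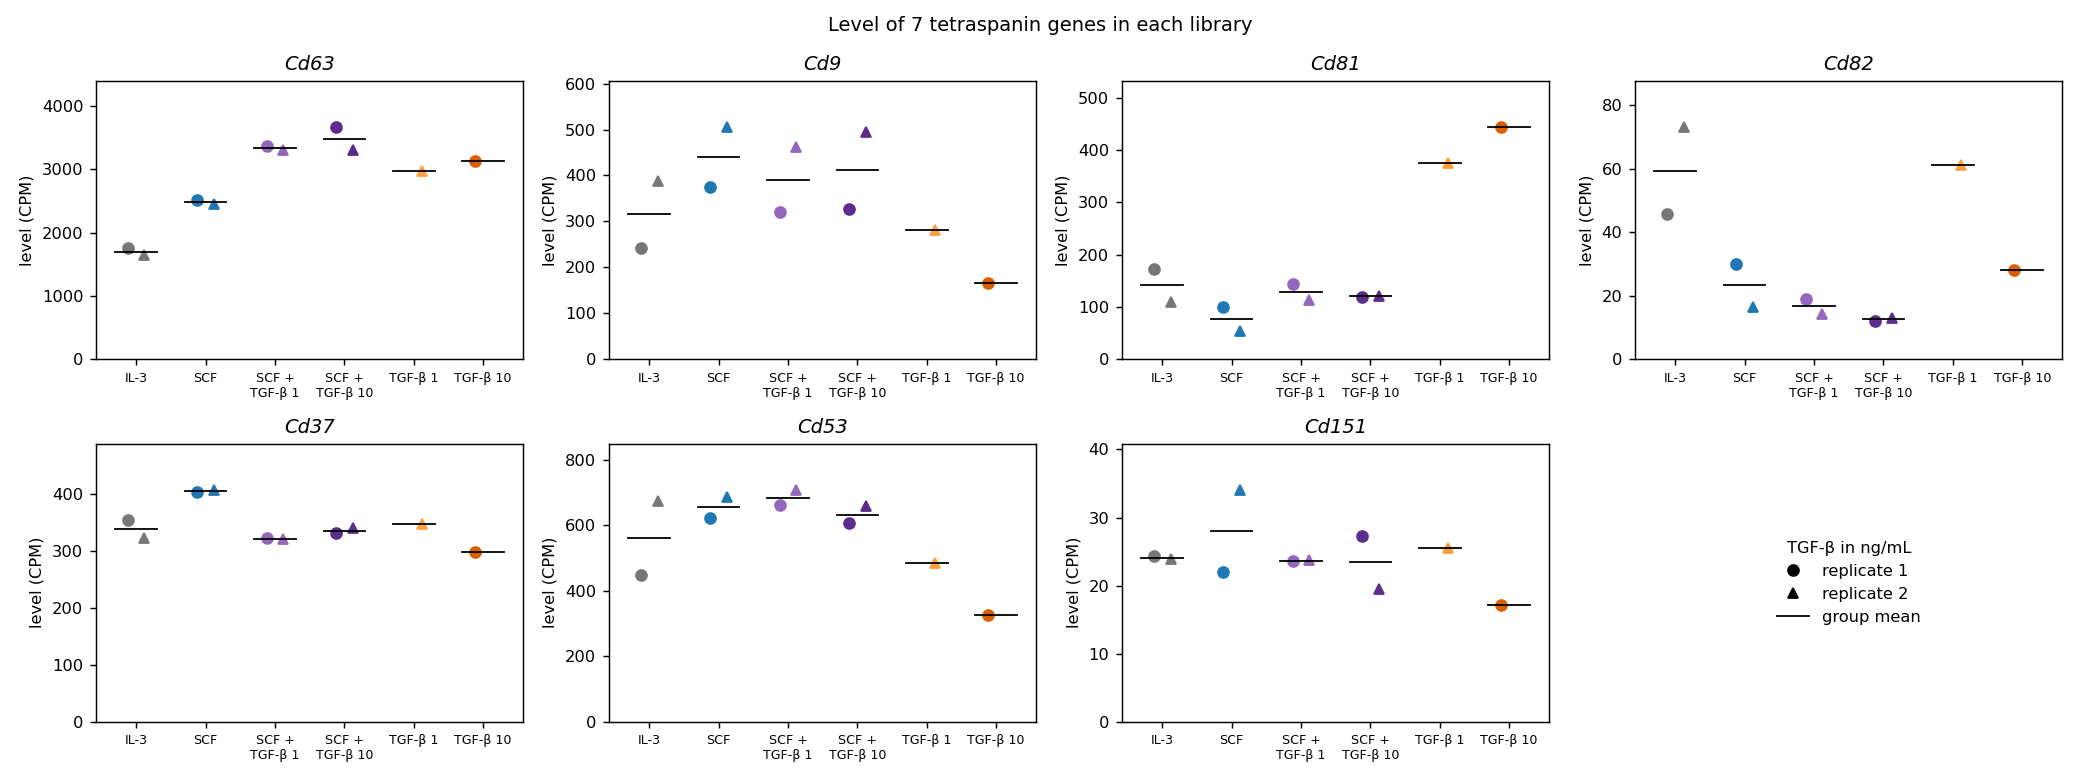
Level in CPM (y axis, from 0, its own scale per gene) of each of the 7 tetraspanin genes in each of the 10 libraries, by group (x axis); circles are replicate 1, triangles replicate 2 and lines group means. Cd63 is lowest in IL-3 alone (1650.5 and 1751.5 CPM), Cd81 is highest in the 2 libraries of TGF-β alone (376 and 444 CPM), and Cd82 is low wherever SCF was given (12.1 to 30.0 CPM). Cd82 is also within that range in the library of 10 ng/mL TGF-β alone (28.0 CPM).

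SCF raised Cd63 and lowered Cd81 and Cd82 relative to IL-3 alone. Of the 7 members, 1 was higher and 2 were lower (edgeR's quasi-likelihood test, Benjamini-Hochberg adjusted p under 0.05 over all genes tested), beside 9.17% of all genes called in this comparison (5.71% higher, 3.46% lower). The median log2 fold change was 0.22 over the members and -0.02 over all genes tested. Cd63 stood at 1751.5 and 1650.5 CPM in IL-3 and at 2510.5 and 2460.7 CPM in SCF. Both SCF libraries were above both IL-3 libraries, a rise of 1.46-fold (log2 fold change 0.55 ± 0.11 (SE), adjusted p = 0.00662). Without IL-3 replicate 2 the call was lost (adjusted p = 0.0781, range over 18 alternatives 2.74e-05 to 0.0781).

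Cd81 and Cd82, the members that fell, are organisers of receptors at the plasma membrane, and CD82 is also known as KAI1. Cd81 stood at 173 and 109 CPM in IL-3 and at 100.1 and 53.6 CPM in SCF. The SCF libraries lay below the IL-3 libraries, though 109 and 100.1 CPM are close, and the fall was 1.83-fold (log2 fold change -0.87 ± 0.24, adjusted p = 0.0352). That call was lost without IL-3 replicate 1 (adjusted p = 0.344), without SCF replicate 2 (0.329) and with DESeq2 (0.181), in a range from 0.000116 to 0.344. Cd82 stood at 45.6 and 73.0 CPM in IL-3 and at 30.0 and 16.4 CPM in SCF. These libraries did not overlap either, and the fall was 2.47-fold (log2 fold change -1.30 ± 0.29, adjusted p = 0.00947). It was lost without IL-3 replicate 2 (adjusted p = 0.161) and without SCF replicate 2 (0.125). The eosinophil marker list was also lower with SCF. It summed to 20.7 to 21.8 CPM in IL-3, 13.2 to 14.0 CPM in SCF and 3.26 to 6.32 CPM in SCF with TGF-β, but to 17.0 and 28.0 CPM with 1 and 10 ng/mL TGF-β alone, where Cd82 was lower at the dose with the higher sum. Of its 4 genes 2 were detected, with the defining genes Epx and Prg2 at 0 in every group, and its part in the Cd82 result was not tested.

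The other members did not pass the test. Cd9 had a log2 fold change of 0.48 (95% interval -0.01 to 0.97, adjusted p = 0.223), with 243 and 387 CPM in IL-3 and 374 and 505 CPM in SCF, and these ranges overlapped. With the replicate number as a block (adjusted p = 0.00315) or with no filter (0.0199) Cd9 was called higher, in a range over 18 alternatives from 0.00315 to 0.755. Cd37 had 354 and 322 CPM in IL-3 and 404 and 407 CPM in SCF. Its SCF libraries were both higher, with a log2 fold change of 0.26 (interval -0.01 to 0.53, adjusted p = 0.232). Cd53 (0.22, interval -0.12 to 0.56) and Cd151 (0.20, interval -0.39 to 0.79) overlapped between the groups.

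**Figure D2:**
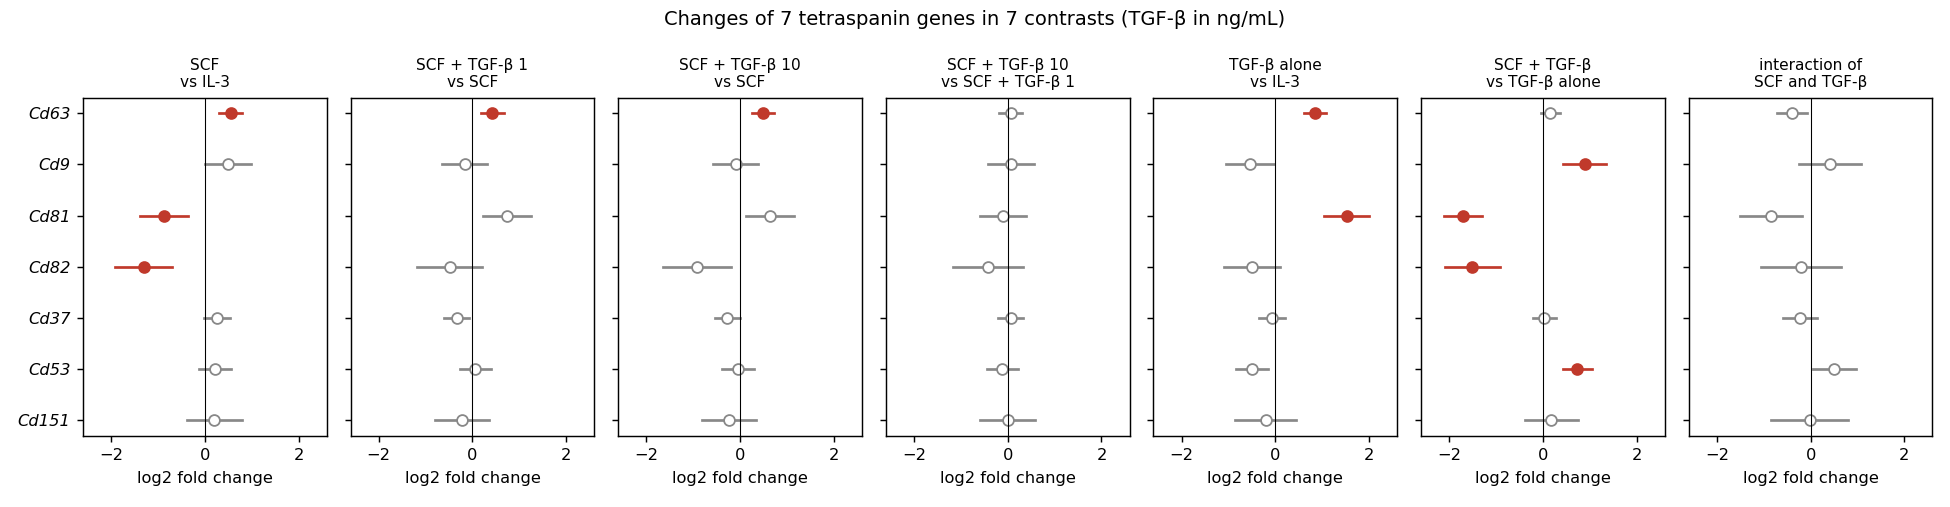
Log2 fold change (x axis) of the 7 members in 7 comparisons (panels), with 95% intervals from the edgeR fit; filled red points passed the test (adjusted p under 0.05) and open grey points did not; TGF-β doses are in ng/mL. Cd63 lies above 0 in SCF, in SCF with TGF-β and in TGF-β alone, while Cd81 is lower in SCF (-0.87) and higher in TGF-β alone (1.52).

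Adding TGF-β to SCF raised Cd63 further. At 1 ng/mL, 1 of the 7 members was called higher and none lower, beside 4.64% of all genes called (1.89% higher, 2.75% lower); at 10 ng/mL it was again 1 higher and none lower, beside 8.37% (3.78% higher, 4.59% lower). The members' median log2 fold change was -0.17 and -0.10 at the 2 doses, and that of all genes tested was 0.01 and -0.00. Cd63 stood at 3374.5 and 3302.8 CPM with 1 ng/mL and at 3666.6 and 3310.6 CPM with 10 ng/mL. All 4 libraries were above both SCF libraries. The rise was 1.34-fold at 1 ng/mL (log2 fold change 0.43 ± 0.11, adjusted p = 0.0385) and 1.40-fold at 10 ng/mL (0.49 ± 0.11, adjusted p = 0.0114). The 2 comparisons share the SCF libraries.

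The Cd63 call at 1 ng/mL was not firm. It was lost in 7 of 18 alternatives: with only the groups compared in the fit (adjusted p = 0.0744), without SCF replicate 1 (0.155) or 2 (0.17), without the first (0.158) or second (0.178) library of 1 ng/mL TGF-β with SCF, and without the first (0.0639) or second (0.0647) library of 10 ng/mL TGF-β with SCF, in a range from 0.00124 to 0.178. At 10 ng/mL it was lost without SCF replicate 1 (adjusted p = 0.0626) or 2 (0.0747) and without the first library of 10 ng/mL TGF-β with SCF (0.152), in a range from 0.000185 to 0.152.

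For Cd81 at both doses, Cd82 at 10 ng/mL and Cd37 at both doses the libraries did not overlap with SCF, but none was called. Cd81 stood at 144 and 113 CPM with 1 ng/mL TGF-β and at 120 and 122 CPM with 10 ng/mL, all 4 libraries above the SCF libraries (log2 fold change 0.73, interval 0.22 to 1.24, adjusted p = 0.113, and 0.63, interval 0.12 to 1.15, adjusted p = 0.138). Cd81 was called higher at 1 and 10 ng/mL with no filter (adjusted p = 0.00164 and 0.00847), with the replicate block (0.00754 and 0.013) and without SCF replicate 1 (0.0176 and 0.0173), in ranges of 0.00164 to 0.652 and 0.00847 to 0.653. All 4 levels were within the range of the IL-3 libraries. Cd82 stood at 12.1 and 13.0 CPM with 10 ng/mL, below both SCF libraries (log2 fold change -0.91, interval -1.64 to -0.19, adjusted p = 0.123, and 0.047 without SCF replicate 2, in a range of 0.047 to 0.719). At 1 ng/mL it had 18.9 and 14.2 CPM and overlapped SCF. Cd37, at 322 and 321 CPM with 1 ng/mL and 331 and 340 CPM with 10 ng/mL, was below its 2 SCF libraries at both doses (log2 fold change -0.34, adjusted p = 0.18, and -0.27, adjusted p = 0.236). Cd9, Cd53 and Cd151 overlapped with SCF at both doses, with log2 fold changes between -0.23 and 0.06.

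Between the 2 doses of TGF-β given with SCF, 0 of 7 members were called by edgeR, DESeq2 or limma-voom, and 0 had an unadjusted p under 0.05, beside 0.0178% of all genes called (0.00889% higher, 0.00889% lower). The intervals bound the differences: the log2 fold change of 10 against 1 ng/mL lay between -0.18 and 0.30 for Cd63, -0.59 and 0.39 for Cd81, -0.41 and 0.56 for Cd9, and -1.17 and 0.32 for Cd82. Cd82 rests on 24 to 45 counts per library there, and a change within its interval is not excluded.

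TGF-β without SCF raised Cd63 and Cd81 over IL-3 alone. Of the 7 members 2 were called higher and none lower, beside 3.48% of all genes called (1.36% higher, 2.12% lower), with a median log2 fold change of -0.21 over the members and -0.02 over all genes tested. Cd81 stood at 376 CPM (exact Poisson interval 342 to 413) with 1 ng/mL and at 444 CPM (408 to 482) with 10 ng/mL, against 173 and 109 CPM in IL-3 (such intervals cover counting error only, as PCR copies are not marked). Both libraries were above every other library of the study. The rise was 2.87-fold for the mean of the 2 doses (log2 fold change 1.52 ± 0.23, adjusted p = 0.000724). Cd63 stood at 2979.1 and 3141.8 CPM, above both IL-3 libraries, a rise of 1.80-fold (log2 fold change 0.85 ± 0.12, adjusted p = 0.000314). Both calls were kept in all 17 alternatives, among them each dose by itself. By dose, the log2 fold change was 1.40 with 1 ng/mL and 1.65 with 10 ng/mL for Cd81, and 0.81 and 0.89 for Cd63. Some alternatives left out a library of SCF with TGF-β, which is in neither group compared. These hardly moved the value (1.51 or 1.52 for Cd81) and so add little support. This comparison shares the IL-3 libraries with that of SCF, in which Cd63 was higher as well and Cd81 was lower. In TGF-β alone the library of 1 ng/mL carries replicate number 2 and that of 10 ng/mL number 1. A difference between these doses therefore cannot be told apart from one between the numbers.

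The dendritic cell marker list was also highest where Cd81 was highest. It summed to 20.4 and 41.2 CPM with 1 and 10 ng/mL TGF-β alone, against 2.11 to 3.63 CPM in IL-3, 0.63 to 1.50 CPM in SCF and 7.58 to 17.4 CPM in SCF with TGF-β. Of its 5 genes 2 had counts in the groups with TGF-β, Itgax (at most 38.9 CPM in any library) and Zbtb46 (at most 2.71 CPM). Most of the sum there was thus 1 gene, Itgax, and Flt3, Xcr1 and Siglech were at 0. Its part in the Cd81 result was not tested. Each dose of TGF-β alone is 1 library, so its spread is taken from the groups with 2 libraries.

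The remaining members did not pass the test in TGF-β alone, though Cd9 and Cd53 were called lower in some alternatives. Cd53 had 484 and 326 CPM against 449 and 674 CPM in IL-3 (log2 fold change -0.50, interval -0.85 to -0.15, adjusted p = 0.12), and Cd9 had 282 and 165 CPM against 243 and 387 CPM (-0.54, interval -1.05 to -0.03, adjusted p = 0.286). Both genes overlapped with IL-3 and were lowest of all libraries with 10 ng/mL. Cd9 and Cd53 were called with no filter (adjusted p = 0.0241 and 0.0222), with only the groups compared (0.0204 and 0.0245) and with the replicate block (0.00848 and 0.016), and Cd53 also without IL-3 replicate 1 (0.0185). The range was 0.00848 to 0.883 for Cd9 and 0.016 to 0.724 for Cd53. Cd82 had 61.1 and 28.0 CPM (exact Poisson intervals 47.8 to 76.9 and 19.6 to 38.7) against 45.6 and 73.0 CPM (-0.50, adjusted p = 0.425). Cd37 (-0.07) and Cd151 (-0.21) had adjusted p of 0.856 and 0.805. The 2 doses carry replicate numbers 2 and 1 in the labels, so dose and number cannot be told apart for any gene. In the 4 groups with 2 libraries Cd9 and Cd53 were higher in replicate 2 in 4 of 4 (Cd9 by 0.43 to 0.67 on the log2 scale, Cd53 by 0.10 to 0.58). Cd63 was higher in replicate 1 in 4 of 4 (by 0.03 to 0.15), and Cd81 in 3 of 4.

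With TGF-β present, cells that also had SCF differed from cells without it in 4 of 7 members, with 2 higher and 2 lower, beside 24.7% of all genes called (13.3% higher, 11.4% lower). The median log2 fold change was 0.16 over the members and -0.01 over all genes tested. Cd81 was 3.27-fold lower with SCF: 113 to 144 CPM in the 4 libraries with SCF and TGF-β against 376 and 444 CPM with TGF-β alone (log2 fold change -1.71 ± 0.19, adjusted p = 9.25e-06), a call kept in all 17 alternatives. Cd82 was 2.84-fold lower, at 12.1 to 18.9 CPM against 61.1 and 28.0 CPM (log2 fold change -1.50 ± 0.28, adjusted p = 0.000988). Without the library of 1 ng/mL TGF-β alone this call was lost (adjusted p = 0.125). For both genes the groups did not overlap.

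Cd9 and Cd53 rose with SCF in the presence of TGF-β. Cd9 stood at 320 to 495 CPM against 282 and 165 CPM (log2 fold change 0.89 ± 0.22, adjusted p = 0.00598), and Cd53 at 606 to 707 CPM against 484 and 326 CPM (0.73 ± 0.15, adjusted p = 0.00168). All 4 libraries with SCF were above both without it for each gene. Both calls were lost without the library of 10 ng/mL TGF-β alone (adjusted p = 0.226 for Cd9 and 0.12 for Cd53), and that of Cd9 also with DESeq2 (0.052). Cd63 had no call (log2 fold change 0.16, interval -0.05 to 0.37, adjusted p = 0.264), nor had Cd37 (0.03) or Cd151 (0.18).

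Whether TGF-β acted differently with and without SCF was tested directly as an interaction. By edgeR 0 of 7 members were called, beside 0.293% of all genes (0.116% higher, 0.178% lower), and 3 members had an unadjusted p under 0.05. Limma-voom and DESeq2 also called none, but DESeq2 gave no adjusted p for Cd82 and Cd151. The log2 change with TGF-β was smaller in the presence of SCF by 0.84 for Cd81 (interaction -0.84, interval -1.50 to -0.18, adjusted p = 0.39) and by 0.39 for Cd63 (-0.39, interval -0.71 to -0.07, adjusted p = 0.418). For Cd53 the interaction was 0.51 (interval 0.05 to 0.96, adjusted p = 0.48). The difference in the response of these genes to TGF-β with and without SCF is therefore not shown by this design.

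Cd37 and Cd151 were called in none of the 7 comparisons. Cd37 ranged from 299 to 407 CPM over the 10 libraries, a 1.36-fold range and the narrowest of the members. Cd151 ranged from 17.1 to 34.0 CPM on 22 to 61 counts per library. By contrast Cd81 ranged over 8.28-fold, Cd82 over 6.05-fold, Cd9 over 3.06-fold, Cd63 over 2.22-fold and Cd53 over 2.17-fold.

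The members were also set against a list of 31 tetraspanin genes, made of these 7 and 24 others chosen by name. The 7 members made up 67.8% to 84% of the list's summed level per kb of exon in a library. Cd63 alone made up 26.3% in the IL-3 library where its share was lowest and 50% in the library where it was highest. Of the 24 others, 11 had enough counts to be tested and 3 had 0 counts in every library. The most abundant other was Tspan13, at 523 to 925 CPM. Cd81's share ran from 1.03% to 8.14% over the 10 libraries and that of Cd53 from 9.87% to 22.7%.

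**Figure D3:**
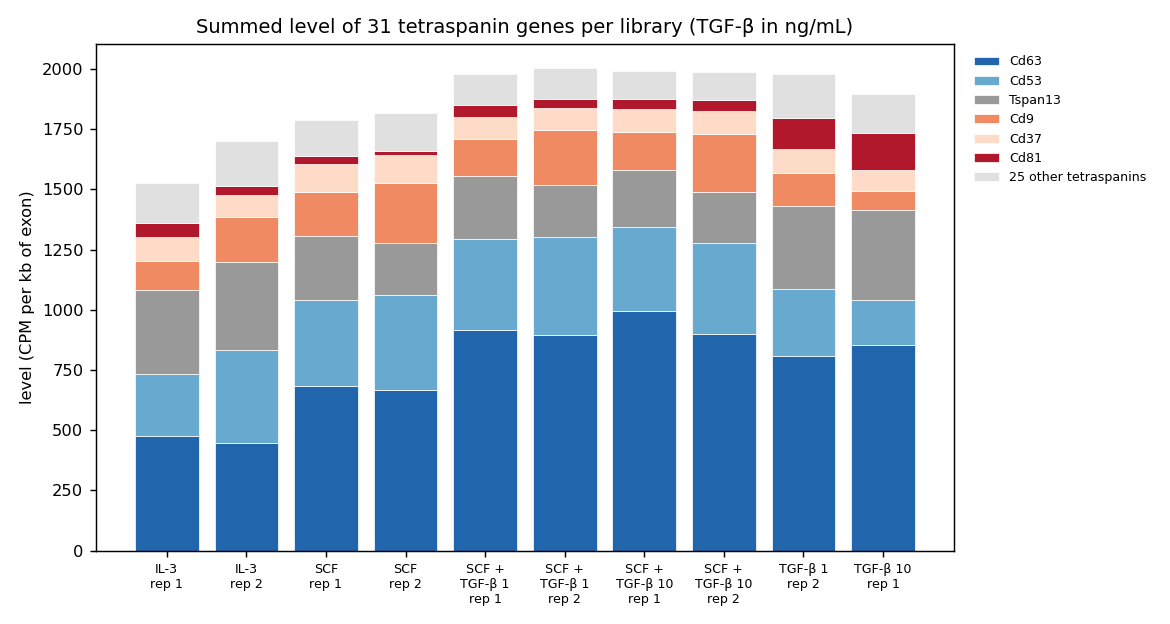
Summed level of 31 tetraspanin genes per library (y axis, CPM per kb of exon, from 0), stacked by gene, with the 10 libraries on the x axis; Cd82 and Cd151 are within the light grey segment of 25 genes. Cd63 takes between 26.3% and 50% of each bar, and the 7 members together take 67.8% to 84%.

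Of the 11 other tetraspanins tested, 0 rose and 2 fell in SCF against IL-3 (median log2 fold change 0.10), beside 9.17% of all genes called (3.46% lower). Tspan32, which encodes a tetraspanin of blood cells, stood at 126 and 79.3 CPM in IL-3 and at 37.5 and 18.9 CPM in SCF (log2 fold change -1.84 ± 0.30, adjusted p = 0.00101), and was called in all 18 alternatives. Tspan13 fell by 0.55 on the log2 scale (adjusted p = 0.0215), a call lost without IL-3 replicate 1 (0.06), IL-3 replicate 2 (0.143) or SCF replicate 2 (0.231). Beside 4.64% of all genes called, adding 1 ng/mL TGF-β to SCF lowered Tspan2 alone among the 11 (log2 fold change -2.12 ± 0.55, adjusted p = 0.0341). That call was lost with limma-voom (0.0637) and without either SCF library (0.0915 and 0.178) or either library of SCF with 1 ng/mL TGF-β (0.124 and 0.202). At 10 ng/mL, beside 8.37% of all genes called, 1 rose, Tspan9 (1.60 ± 0.48, adjusted p = 0.0467), and 1 fell, Tspan4 (-0.67 ± 0.18, adjusted p = 0.025). Tspan9 was lost in 8 of 18 alternatives, with either IL-3 library (0.0503 and 0.0507), either SCF library (0.156 and 0.211) or either library of SCF with 10 ng/mL TGF-β (0.228 and 0.111) left out and with DESeq2 (0.388) or limma-voom (0.062). Tspan4 was lost without SCF replicate 2 (0.166), without the first library of 10 ng/mL TGF-β with SCF (0.257) and with DESeq2 (0.163). Between the doses and for the interaction none was called, beside 0.0178% and 0.293% of all genes.

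With TGF-β alone 0 of the 11 were called against IL-3 by edgeR, beside 3.48% of all genes, and 2 had an unadjusted p under 0.05. Tspan32 stood at 182 and 200.5 CPM with 1 and 10 ng/mL, above both IL-3 libraries. With SCF and TGF-β against TGF-β alone 1 rose and 3 fell, beside 24.7% of all genes called (11.4% lower), with a median log2 fold change of -0.29. Tspan32 had 29.7 to 52.6 CPM in the 4 libraries with SCF and fell by 2.26 ± 0.23 on the log2 scale (adjusted p = 3.7e-06, called in all 17 alternatives). Tspan13 fell by 0.63 (adjusted p = 0.00106) and Rom1, known from photoreceptors, fell by 1.57 (adjusted p = 0.0121, lost without the library of 10 ng/mL TGF-β alone, 0.101, and with DESeq2, 0.0703). Tspan9 rose by 2.81 (adjusted p = 0.00343, lost without the library of 1 ng/mL TGF-β alone, 0.0841). Thus Cd81 and Tspan32, 33.1 kb apart on chromosome 7, were both lower in SCF than in IL-3 and lower in SCF with TGF-β than in TGF-β alone.

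**Figure D4:**
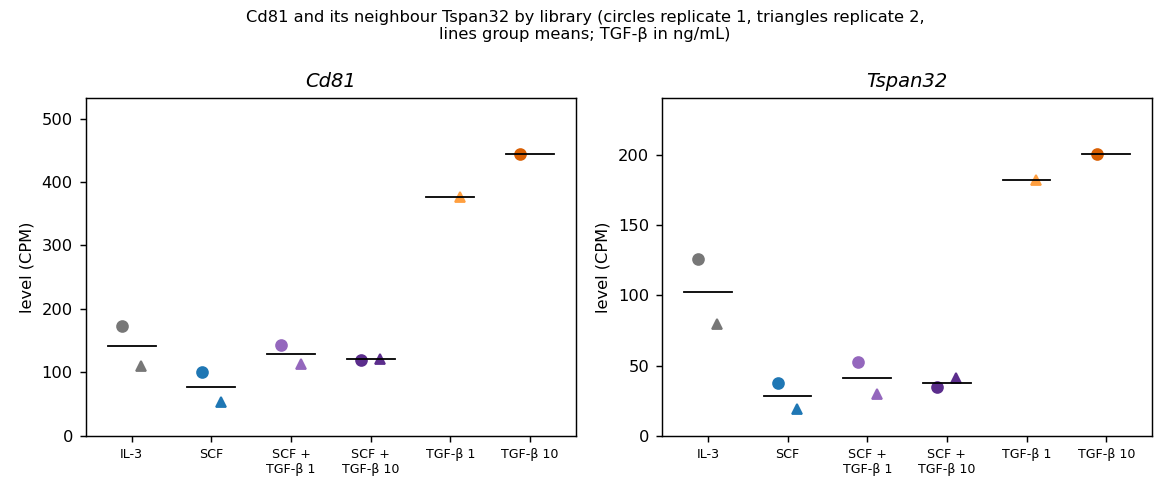
Level in CPM (y axis, from 0) of Cd81 (left) and its neighbour Tspan32 (right) in each of the 10 libraries by group (x axis); circles are replicate 1, triangles replicate 2 and lines group means. Both are highest in TGF-β alone (Cd81 376 and 444 CPM, Tspan32 182 and 200.5 CPM) and lowest in SCF replicate 2 (53.6 and 18.9 CPM).

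Among 25 genes for tetraspanin partners and adaptors (integrins, immunoglobulin-family partners, proteases, cytoskeletal linkers, syntenin and ALIX of the vesicle pathway, and the AP-3 complex that sorts CD63), 21 could be tested. In SCF against IL-3, 4 of 21 rose and 0 fell, beside 9.17% of all genes called (5.71% higher), with a median log2 fold change of 0.18. They were Itgb1, the β1 integrin chain (0.77, adjusted p = 0.022), Sdcbp, which encodes syntenin, a binder of CD63 (0.64, adjusted p = 0.00599), Pdcd6ip, which encodes ALIX (0.54, adjusted p = 0.0281), and the membrane-cytoskeleton linker Ezr (0.71, adjusted p = 0.04). Leaving out 1 library left 0 to 4 of them called: Sdcbp was lost without IL-3 replicate 2 (0.0859) or SCF replicate 2 (0.0784), Itgb1 without IL-3 replicate 1 (0.103) or 2 (0.122) or SCF replicate 1 (0.149), and Pdcd6ip (0.162, 0.0823 and 0.213) and Ezr (0.0959, 0.253 and 0.356) without IL-3 replicate 1 or 2 or SCF replicate 2. With DESeq2 the calls of Itgb1 (0.0834), Pdcd6ip (0.0504) and Ezr (0.0851) were lost, and with limma-voom that of Ezr (0.0556).

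Adding TGF-β to SCF left 0 of 21 partners called at 1 ng/mL, beside 4.64% of all genes called. At 10 ng/mL, beside 8.37% of all genes, 1 was called, Igsf3, which rose by 2.21 on the log2 scale (adjusted p = 0.00662). It was lost without SCF replicate 1 (0.0705), without the second library of 10 ng/mL TGF-β with SCF (0.0603) and with DESeq2 (0.082). TGF-β alone raised 1 of 21, the hyaluronan receptor Cd44 (0.78, adjusted p = 0.0124, lost without IL-3 replicate 1, 0.166, or the library of 1 or 10 ng/mL TGF-β alone, 0.0514 and 0.0697). Of all genes, 3.48% were called in TGF-β alone against IL-3 (1.36% higher). In TGF-β with SCF against TGF-β alone 7 of 21 rose and 0 fell, beside 24.7% of all genes called (13.3% higher), with a median log2 fold change of 0.47. The 6 with the smallest adjusted p were Itgb1 (log2 fold change 1.13, adjusted p = 0.000341, called in all 17 alternatives), then Sdcbp (0.59, adjusted p = 0.00146), the membrane protease Adam10, which matures with the help of tetraspanins (0.68, adjusted p = 0.00296), Ezr (0.78, adjusted p = 0.00588), Igsf3 (2.10, adjusted p = 0.00803) and Pdcd6ip (0.47, adjusted p = 0.0146). Without 1 library 3 to 8 partners were called: the call of Sdcbp (0.054), Adam10 (0.0578) and Ezr (0.088) was lost without the library of 1 ng/mL TGF-β alone, that of Igsf3 without that of 10 ng/mL (0.2) or with DESeq2 (0.0556), and that of Pdcd6ip without either (0.071 and 0.0884).

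Described over the 10 libraries, which share treatments and replicate numbers, the members fell into different patterns. Cd9 and Cd53 ran together (Pearson r of log2 CPM 0.93), and Cd81 ran against both (-0.84 with each), while Cd63 ran against Cd82 (-0.72). Among 9914 other tested genes, those most like Cd63 were Pla2g16 (r = 0.977) and Kcnn4 (0.967), a calcium-activated potassium channel present in mast cells. Those most like Cd81 were Gpn3 (0.964) and Wdfy3 (0.96), and those most like Cd82 were Prpf6 (0.968) and Ssbp1 (0.966). For Cd9 they were Bpnt1 (0.967) and Mrps6 (0.949), and for Cd53 Nr1i3 (0.983) and Ltbr (0.969). With 10 points and this many candidates, high values of r occur for many genes, and they are given as a description.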

How the data were processed

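The sequenced material was total RNA of 10 libraries of cultured mast cells, made by SmartSeq2 with Nextera XT and read as 2 × 38 bases, per the labels' protocols. The authors deposited raw counts per gene, and their processing notes name STAR, HTSeq and DESeq2 with GRCm38 and mm10; their versions, the annotation and the strand setting are not stated in these sources. Of each library's deposited counts, 73.4% to 83.6% stood in 5 rows that name no gene, and these were left out of totals and tests. This share differed by group. It was 73.4% to 76.8% in the libraries with SCF and 77% and 80.1% in IL-3 alone. With 1 and 10 ng/mL TGF-β alone it was 83.6% and 79.5%, and these libraries also had the fewest gene counts (1295048 and 1237382). The part of this difference in the results was not tested. Gene identifiers were matched to names of the GENCODE vM21 annotation (49412 of 49671). RefSeq promoter sequences are of GRCm38.p6.

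Counts were filtered (filterByExpr, leaving 11247 genes), scaled by TMM and fitted with edgeR 4.0.16 in R 4.3.3 (quasi-likelihood F test, 1 mean per group, all 10 libraries, 4 residual degrees of freedom), with Benjamini-Hochberg adjustment over all genes tested in each of 7 comparisons; a gene was called at an adjusted p under 0.05. The comparisons with TGF-β alone use the mean of its 2 doses. The SE is the log2 fold change divided by the root of F, and intervals are at 95%. The pipeline was also run on simulated data with 200 changed genes. The outcome is not given here, so that run is no measure of accuracy for these data. Alternatives were DESeq2 size factors, the DESeq2 1.42.0 Wald test, limma-voom (limma 3.58.1), no filter, a filter of 10 CPM in 2 libraries, only the groups compared, the replicate number as a block, each library left out, and, chosen after seeing the data, the fit without both libraries of TGF-β alone.

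The 7 genes and all lists were chosen with earlier results of these data known. Named from the lists were at most 6 called genes per comparison, smallest adjusted p first, and per called member the 2 genes with the highest r of log2 CPM (prior count 2).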

Additional observations from a re-analysis of the deposited data

How the results depend on the processing

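Each comparison was refitted under up to 18 alternatives. Of 854 refits of single members, 780 kept the direction and the side of the threshold, 20 lost a call and 16 gained one. Another 3 had no adjusted p from DESeq2, and 35 changed sign, 0 of these among called members. Only a called member could lose a call, and most refits were of members without one. Some alternatives left out a library of neither group compared, which can move a log2 fold change little. Depth limits Cd151 and Cd82, with as few as 22 and 24 counts in a library, and with 1 library per dose the groups of TGF-β alone have no spread of their own.

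The number of members called moved as follows. For 1 ng/mL TGF-β with SCF against SCF (1 called) it was 2 with no filter, 0 with only the groups compared, 2 with the replicate block and 0 to 1 with a library left out. For 10 ng/mL (1 called) it was 2 with no filter, 2 with the replicate block and 0 to 1 with a library left out. For TGF-β alone against IL-3 (2 called) it was 4 with no filter, 4 with only the groups compared, 4 with the replicate block and 2 to 3 with a library left out. For SCF against IL-3 (3 called) it was 4 with no filter, 4 with the replicate block, 2 with DESeq2 and 1 to 3 with a library left out (1 without IL-3 replicate 2 or SCF replicate 2). With a library left out it was 2 to 4 for TGF-β with SCF against TGF-β alone (2 without the library of 10 ng/mL, 3 without that of 1 ng/mL). For the dose comparison and the interaction it was 0 throughout. The cause was not tested.

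Over all genes, 1031 were called for SCF against IL-3, 522 and 941 for 1 and 10 ng/mL TGF-β with SCF, 2 between the doses, 391 for TGF-β alone, 2780 for TGF-β with SCF against TGF-β alone and 33 for the interaction. DESeq2 called 471, 270, 438, 0, 225 and 1518 in the first 6. With no filter 8 genes were called between the doses, 601 for TGF-β alone and 125 for the interaction. With only the groups compared 0 were called between the doses and 712 for TGF-β alone. Limma-voom, the filter of 10 CPM and the fit without both libraries of TGF-β alone, which was chosen after seeing the data, gave 0 between the doses. Leaving out 1 library gave 237 to 1055, 252 to 540, 447 to 952, 0 to 5, 143 to 442, 1278 to 2799 and 0 to 30 in the same order. For the interaction, the fit with only the groups compared is the same fit and was not run again.

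Same-numbered libraries deviated together only in part. The correlation of their deviations from the group means was 0.197 to 0.231 over the 3 pairs of groups with SCF and -0.00334 to 0.0215 over the 3 pairs with IL-3, and with 2 libraries a group the numbers were not taken as a pairing. With the replicate number as a block, 859 genes were called for 1 ng/mL TGF-β with SCF, 5 between the doses, 718 for TGF-β alone and 102 for the interaction. Among members the block added Cd81 at 1 and 10 ng/mL TGF-β with SCF (adjusted p = 0.00754 and 0.013), Cd9 in SCF against IL-3 (0.00315), and Cd9 and Cd53, both lower, in TGF-β alone (0.00848 and 0.016); it ended none.

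Changes of sign concerned members without a call. For Cd151, 10 against 1 ng/mL gave 0.00172 with DESeq2 size factors and 0.00455 with the filter of 10 CPM, and the interaction gave 0.0106 with limma-voom and 0.00175 with no filter. With a library left out, the log2 fold change in SCF against IL-3 ran from -0.0421 to 0.54 for Cd53 and from -0.12 to 0.50 for Cd151. With 1 ng/mL TGF-β in SCF it ran from -0.83 to 0.0385 for Cd82, from -0.00793 to 0.14 for Cd53, from -0.45 to 0.0916 for Cd9 and from -0.53 to 0.10 for Cd151. With 10 ng/mL it ran from -0.42 to 0.17 for Cd9, from -0.12 to 0.0232 for Cd53 and from -0.53 to 0.10 for Cd151. Between the doses it ran from -0.27 to 0.21 for Cd151, from -0.25 to 0.36 for Cd9, from -0.25 to 0.0803 for Cd81 and from -0.0105 to 0.14 for Cd63. In TGF-β alone it ran from -1.06 to 0.0605 for Cd82, from -0.17 to 0.0356 for Cd37 and from -0.49 to 0.076 for Cd151. Between SCF with TGF-β and TGF-β alone it ran from -0.0791 to 0.14 for Cd37 and from -0.11 to 0.47 for Cd151, and for the interaction from -0.31 to 0.32 for Cd151 and from -0.76 to 0.36 for Cd82.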

Other observations

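Genes within 50 kb of the members were looked at after their values had been seen. Of 10038 protein-coding genes tested, 31.8% had a call in at least 1 of 5 comparisons (all but that of the doses and the interaction). Near Cd63, 3 of 4 tested neighbours had such a call: Gdf11, Rdh5 and Itga7. Gdf11, 9271 bases away, was higher in TGF-β alone than in IL-3 (21.95 against 6.60 CPM, log2 fold change 1.68 ± 0.43, adjusted p = 0.0397). It was lower in SCF with TGF-β than in TGF-β alone (9.70 against 21.95 CPM, -1.21 ± 0.34, adjusted p = 0.0165), where Cd63 had no call. Gdf11 was not refitted under the alternatives. Rdh5, a retinol dehydrogenase gene 771 bases away, was higher in SCF with 10 ng/mL TGF-β than in SCF (17.9 against 4.83 CPM, log2 fold change 1.84 ± 0.44, adjusted p = 0.0134). Without SCF replicate 2 (0.12), without the first library of 10 ng/mL TGF-β with SCF (0.13) and with DESeq2 (0.0967) that call was lost. Itga7, an integrin chain for laminin 20996 bases away, had 0 counts in both SCF libraries and means of 10.9 and 23.3 CPM with 1 and 10 ng/mL TGF-β in SCF (adjusted p = 0.00357 and 0.000204, called in all 18 alternatives at each dose). Near Cd81, 2 of 3 tested neighbours had a call, Tspan32 and Kcnq1, and near Cd151 2 of 8, Chid1 and Tspan4. Kcnq1 was called lower in SCF with TGF-β than in TGF-β alone (means of 0.47 and 3.60 CPM, adjusted p = 0.039). In TGF-β alone, where Cd81 rose, Kcnq1 had a mean of 3.60 CPM against 6.69 CPM in IL-3, with no call. Tssc4, the neighbour of Cd81 without a call, lies 1315 bases from it (log2 fold change 0.33 in SCF against IL-3). Cd37 and Cd53 had 1 tested neighbour each and neither had a call.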
